A study of Mus musculus with 6 samples.

Results

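The genes described here are 10 immediate early genes that lie outside the AP-1 family, namely the zinc finger factors Egr1, Egr2 and Egr3, the orphan nuclear receptors Nr4a1, Nr4a2 and Nr4a3, the immediate early response genes Ier2 and Ier3, and the Krüppel-like factors Klf2 and Klf6. They were picked by symbol, with earlier results of these data known, and all 10 were found among the 55418 gene symbols of the count table. The gene lists set beside them were chosen with the same knowledge. RNA came from MOC2, a mouse head and neck squamous carcinoma line labelled HPV negative, in 3 libraries labelled EphA4 knockout and 3 libraries of control CRISPR cells. The knockout-labelled cells are 1 clone, named H3, so what is peculiar to that clone and what follows from the edit cannot be told apart. Both groups were untreated, were passaged 2 times after thawing, and grew in the same serum medium with added EGF, hydrocortisone and insulin. No separate cultures are named for the samples of a group, and the spread behind each p-value may therefore be technical. Polyadenylated RNA was measured as read counts per gene, from 35115926 to 41775031 per library. Levels are given as CPM, counts scaled to the total of the tested genes with TMM factors, and as TPM, which also divides by merged exon length, where genes are compared with each other.

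Immediate early genes are transcribed within minutes of a stimulus such as a growth factor or stress, without new protein synthesis, by factors already present in the cell. SRF with its ETS partners, driven by the ERK cascade, and CREB are among the best known of those factors, and the transcripts are short-lived because AU-rich elements in them recruit decay proteins such as the product of Zfp36. The EGR, NR4A and KLF proteins are themselves transcription factors that pass the signal to later genes. In cultured cells these transcripts keep a basal level that depends on the signals acting at harvest.

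Epha4, the targeted receptor tyrosine kinase gene, went against the label. In the libraries labelled EphA4 knockout it had 99.7 ± 3.27 CPM, and in control libraries 55.1 ± 4.26 CPM (SD, n = 3 each), with a log2 fold change of 0.86, so every direction given here belongs to the labels and to no measured loss of Epha4 transcript. A gene-level count does not show whether an edited transcript is still made or encodes protein. EphA4 knockout replicate 3 stood apart, with processed pseudogenes taking 1.41% of its counts and 0.255% to 0.307% of those of the other 5 libraries, and the part of this in the results was not tested beyond leaving that library out. Of the 6 epithelial markers tested 4 were higher and 2 lower, where 32.7% of all tested genes were higher and 38.8% lower. The simple epithelial keratin genes Krt8 and Krt18, with Epcam and Cdh1, were abundant in every library. Itgb4 was abundant too, at 268 CPM in the knockout-labelled and 224 CPM in the control libraries on average. By contrast, the basal squamous markers Krt5 and Trp63 had at most 2 counts in any library. Krt14 was detected at a low level, with 1.83 ± 0.60 CPM in the knockout-labelled libraries and 3.72 ± 0.26 CPM in control (SD, n = 3 each). Of 7 fibroblast markers, 5 were tested and all 5 were lower, 4 of them having passed the filter through the control libraries alone, with summed levels of 1.93 to 2.03 CPM in the knockout-labelled libraries and 48.0 to 51.4 CPM in control, Lum being at 0 throughout. The other marker, Col1a2, was untested and went the other way, with 8, 11 and 10 counts in the knockout-labelled libraries, against 4, 0 and 1 counts in control. Of 6 leukocyte markers only Cd68 was tested and it was lower. Among those untested, Ptprc had 41 counts over the knockout-labelled and 14 over the control libraries, Cd79a 10 and 2, and Lyz2 4 and 0, each with overlapping groups. The leukocyte list summed to 4.42 to 4.95 CPM in the knockout-labelled libraries and 17.6 to 19.8 CPM in control, most of it Cd68, with Cd3e and Adgre1 at 0 in every library. The 5 endothelial markers summed to at most 1.46 CPM in any library, with Emcn at 0. In bulk RNA, fewer cells of a type and less RNA per cell cannot be told apart, and the part of other cells in the results was not tested.

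All 9 of the genes that could be tested were lower in the libraries labelled EphA4 knockout, and the sizes ran from a log2 fold change of -5.48 for Egr3 to -0.12 for Klf6. The EGR genes and Ier3 changed most, Nr4a1, Nr4a2 and Ier2 by less than 2-fold, and Klf2 and Klf6 by less than 1.2-fold. Across all 15199 genes tested by edgeR's quasi-likelihood test, 38.8% were called lower and 32.7% higher at an adjusted p under 0.05, with a median log2 fold change of -0.04. Egr2 and Egr3 reached the filter on low counts in the control libraries alone, so that their direction was fixed by it. The 7 others were counted well in both groups, and each of the 7 was lower. Of the 9, 4 had a log2 fold change of -1 or below, where 20.1% of tested genes were called so far down, but Egr2 and Egr3 are 2 of these 4, and of the 7 that passed in both groups 2 were, Egr1 and Ier3. For each of the 7 the 3 knockout-labelled libraries lay below the 3 control libraries, as for 41.4% of all tested genes. The same held for Egr2 and Egr3, whose direction the filter fixed. Nr4a3 stayed under the filter.

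**Figure D1:**
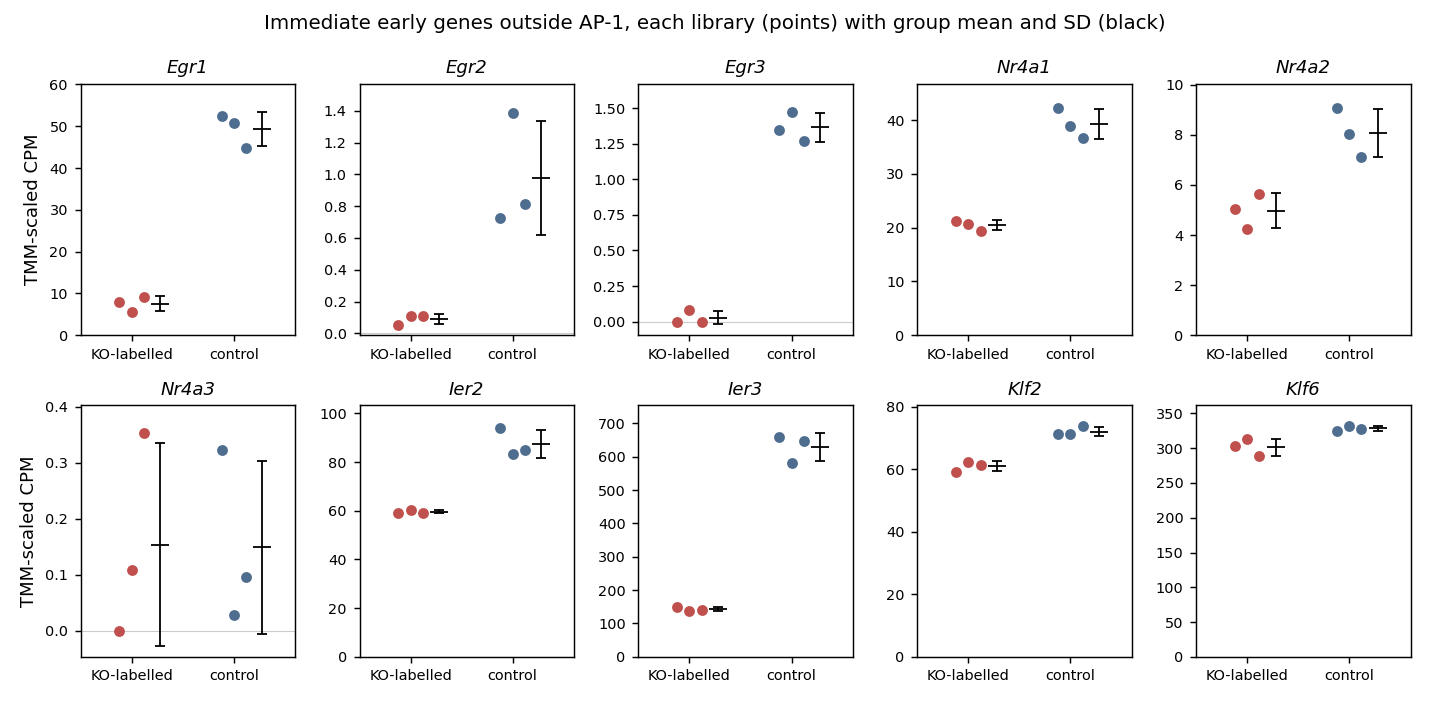
TMM-scaled CPM of each of the 10 genes in the 3 libraries labelled EphA4 knockout (red, left) and the 3 control libraries (blue, right), with the group mean and SD in black and a separate linear axis per gene. Egr1 and Ier3 are far apart between the groups, at 7.51 against 49.3 CPM and 143 against 629 CPM on average, Klf2 and Klf6 lie close together, and the points of Nr4a3 overlap.

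Among the EGR factors, which bind GC-rich sites through zinc fingers, Egr1 carried nearly all of the transcript and fell 6.57-fold. Egr1, on chromosome 18, had 7.94, 5.50 and 9.09 CPM in the libraries labelled EphA4 knockout, against 52.4, 50.9 and 44.8 CPM in the control libraries. Even the highest knockout-labelled library lay far below the lowest control library. The log2 fold change was -2.72, with an SE of 0.16 and an edgeR adjusted p of 8e-07. Only 8.91% of tested genes had a log2 fold change as low or lower. The knockout-labelled libraries also differed among themselves: their coefficient of variation for Egr1 was 24.4%, where counting alone would give 6.04%, against 8.11% and 2.31% in control. Replicate 2 was the lowest of them and replicate 3 the highest.

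Egr2, on chromosome 10, known for its part in myelination and in T cell restraint, was near the limit of detection. It had 2, 4 and 4 counts in the knockout-labelled libraries, against 27, 49 and 34 counts in control. The ratio of control to knockout-labelled was 10.6, with a 95% exact binomial interval of 5.52 to 22.6 that covers counting error only (adjusted p = 4e-04 in edgeR). Egr3, on chromosome 14, a paralog that acts with Egr2 in lymphocytes and muscle spindles, had 0, 3 and 0 counts in the knockout-labelled libraries, against 50, 52 and 53 counts in control. Zero counts in replicates 1 and 3 allow up to 0.0839 and 0.0817 CPM there. The ratio of control to knockout-labelled was 49.6, with a counting interval of 16.6 to 243 (adjusted p = 0.00028 in edgeR). All 3 counts came from replicate 2, and without that library the fitted log2 fold change went to -8.66, a value set by the zeros and no bound. Both genes were low even in control, at 0.977 ± 0.358 CPM for Egr2 and 1.36 ± 0.10 CPM for Egr3 (SD, n = 3 each). Because both passed the filter through the control libraries alone, their adjusted p-values and intervals are no support for the direction.

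A promoter window, from 250 bases before to 50 bases after a start site in RefSeq's GRCm38.p6 annotation, was found for 7 of the 10 genes, 11 windows in all, of which 5 belong to Egr2. The windows were searched on both strands for the CArG box that SRF binds, for TGACGTCA (the full CREB site), TGACG (its 5-letter part, also found inside the full site), GCGGGGGCG (an EGR site), AAAGGTCA (the NR4A monomer site), TGACTCA (AP-1), TATAAA and CCGGAAG (ETS). A CArG box match occurred in 4 of the 5 Egr2 windows, 3 of which overlap and share 1 site, and in no window of the other 6 genes, and 1.63% of all 32851 RefSeq windows hold one. The Egr2 window at chr10:67537619-67537918 (plus strand) is shown because it holds both kinds of match found in Egr2. Positions are those of the first base of a match relative to the start site. The window has a CArG box match at position -72 and 5-letter CREB matches at positions -111 and -55, all in capitals.
Egr2: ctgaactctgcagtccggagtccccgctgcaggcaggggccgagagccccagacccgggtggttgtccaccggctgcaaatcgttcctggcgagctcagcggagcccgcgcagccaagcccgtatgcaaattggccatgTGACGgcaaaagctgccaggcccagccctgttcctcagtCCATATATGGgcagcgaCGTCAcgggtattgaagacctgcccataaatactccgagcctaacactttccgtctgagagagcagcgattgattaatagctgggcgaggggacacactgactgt

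NR4A receptors are nuclear receptors that act without a known natural ligand. Of the 3 genes 2 could be tested, and these were lower by less than 2-fold, where 38.8% of all tested genes were called lower. Nr4a1, on chromosome 15, the most abundant of them, had 21.3, 20.7 and 19.4 CPM in the libraries labelled EphA4 knockout, against 42.2, 38.9 and 36.6 CPM in control. The log2 fold change was -0.94 (SE 0.07, edgeR adjusted p 4.1e-06), a fall of 1.92-fold. The libraries of each group were tight, with coefficients of variation of 4.70% in the knockout-labelled and 7.12% in the control group. Nr4a2, on chromosome 2, a factor needed for midbrain dopamine neurons, had 5.03, 4.26 and 5.63 CPM in the knockout-labelled libraries, against 9.06, 8.04 and 7.13 CPM in control. The groups did not overlap, with a log2 fold change of -0.70 (SE 0.18, edgeR adjusted p 0.0064). Nr4a3, on chromosome 4, had 0, 4 and 13 counts in the knockout-labelled libraries, against 12, 1 and 4 counts in control, 17 in each group. At this depth no difference was detectable: the ratio of control to knockout-labelled was 0.96 with a counting interval of 0.46 to 2.00, and the groups overlapped. In the 5 alternatives that let Nr4a3 be tested its log2 fold change ran from -0.41 to 0.63, and it was called in 0 of them.

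**Figure D2:**
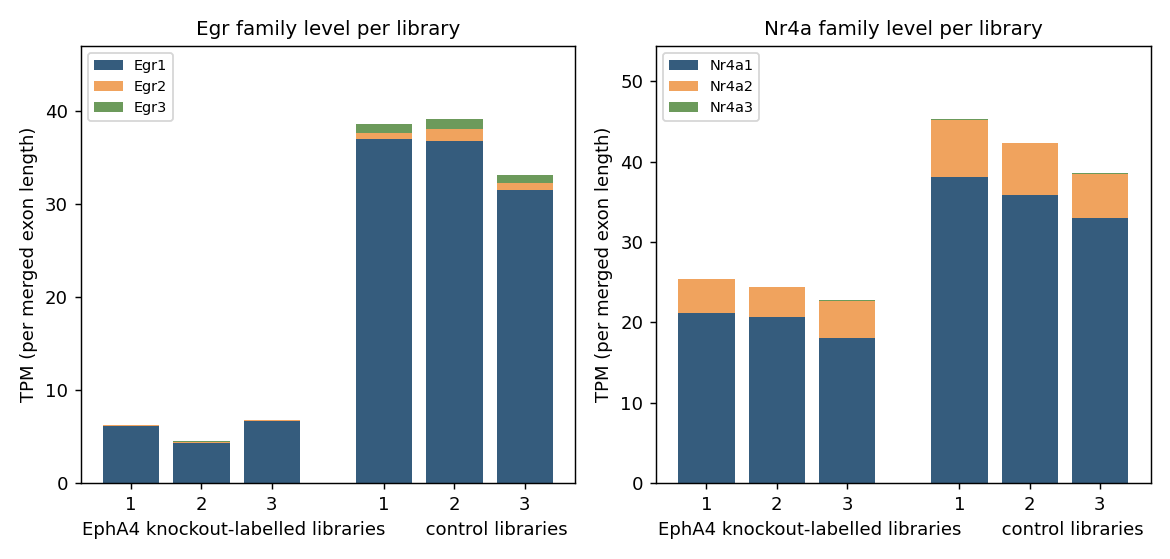
Stacked TPM of the 3 Egr genes (left) and the 3 Nr4a genes (right) in each library, knockout-labelled libraries first. The Egr total is 4.49 to 6.75 TPM against 33.2 to 39.2 TPM in control, the Nr4a total 22.9 to 25.4 TPM against 38.5 to 45.3 TPM, and Egr1 and Nr4a1 make up most of each bar in both groups.

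Nr4a1 made up 79.2% to 84.7% of the NR4A family's TPM in the knockout-labelled libraries and 84.0% to 85.5% in control. Egr1 made up 96.1% to 99.1% of the summed TPM of Egr1, Egr2 and Egr3 in the knockout-labelled libraries and 93.9% to 95.7% in control. Egr4, left out of that sum, had at most 0.177 TPM in a knockout-labelled library and 0.458 TPM in a control library. Shares with Egr4 were not computed, and the filter fixed the direction of Egr2 and Egr3, so no shift between the groups is read from these shares. The Egr total in the knockout-labelled libraries, at most 6.75 TPM, was below their Nr4a total, at least 22.9 TPM. In control the 2 totals overlapped, at 33.2 to 39.2 TPM and 38.5 to 45.3 TPM.

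The NR4A windows are shown together because all 3 of them hold 5-letter CREB matches, 4 in each. At least 1 such match was found in 7 of the 11 windows, from 5 of the 7 genes, and in 20.8% of all RefSeq windows. How many RefSeq windows hold 4 was not counted. The NR4A windows stand at chr15:101266596-101266895 (plus strand), chr2:57123954-57124253 (minus strand) and chr4:48045055-48045354 (plus strand). Capitals mark TGACG or its reverse complement, in Nr4a1 also an EGR site match at position -60 and in Nr4a2 also a TATAAA match in reverse orientation at position -164. No full TGACGTCA was found in any of the 11 windows, against 1.79% of all windows. Nr4a3 has as many matches as Nr4a1 and stayed at or below 0.354 CPM in every library.
Nr4a1: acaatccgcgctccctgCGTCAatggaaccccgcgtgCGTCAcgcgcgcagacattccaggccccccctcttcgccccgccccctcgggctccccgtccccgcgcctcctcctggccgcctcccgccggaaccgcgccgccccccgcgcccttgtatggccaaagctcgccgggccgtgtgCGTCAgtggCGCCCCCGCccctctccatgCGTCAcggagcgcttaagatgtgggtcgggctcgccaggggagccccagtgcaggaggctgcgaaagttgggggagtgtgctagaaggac
Nr4a2: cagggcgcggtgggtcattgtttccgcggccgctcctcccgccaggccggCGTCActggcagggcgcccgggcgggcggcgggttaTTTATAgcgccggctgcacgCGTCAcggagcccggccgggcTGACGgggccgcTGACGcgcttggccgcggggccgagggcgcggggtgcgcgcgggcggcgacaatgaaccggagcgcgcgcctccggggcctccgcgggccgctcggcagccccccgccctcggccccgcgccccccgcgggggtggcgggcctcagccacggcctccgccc
Nr4a3: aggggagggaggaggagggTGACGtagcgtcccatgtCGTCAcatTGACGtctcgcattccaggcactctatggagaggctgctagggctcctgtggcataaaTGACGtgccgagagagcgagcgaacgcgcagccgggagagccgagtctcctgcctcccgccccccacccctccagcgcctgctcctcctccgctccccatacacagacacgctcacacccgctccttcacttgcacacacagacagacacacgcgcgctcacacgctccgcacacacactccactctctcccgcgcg

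Ier3 was the most abundant of the 10 genes per length and fell most among the abundant ones. Ier3, on chromosome 17, encodes a small stress-induced protein that acts on cell survival and ERK signalling. It had 150, 139 and 141 CPM in the libraries labelled EphA4 knockout, against 660, 581 and 646 CPM in control. The groups lay far apart compared with their own spread. The log2 fold change was -2.13 (SE 0.06, edgeR adjusted p 9.1e-09), a fall of 4.39-fold. Ier2, on chromosome 8, a nuclear protein gene of the same response despite no shared family, had 59.2, 60.3 and 59.1 CPM in the knockout-labelled libraries, against 93.9, 83.2 and 84.8 CPM in control. The knockout-labelled libraries had a coefficient of variation of 1.14%, where counting alone would give 2.15%, and all lay below control. The log2 fold change of Ier2 was -0.55 (SE 0.05, edgeR adjusted p 1.8e-05), so the change was far smaller than that of Ier3.

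The Ier3 window at chr17:35821463-35821762 (plus strand) is shown because this gene fell steeply and its window held none of the 8 motifs searched. All letters are therefore in lower case. No match says only that those letters are not in the window.
Ier3: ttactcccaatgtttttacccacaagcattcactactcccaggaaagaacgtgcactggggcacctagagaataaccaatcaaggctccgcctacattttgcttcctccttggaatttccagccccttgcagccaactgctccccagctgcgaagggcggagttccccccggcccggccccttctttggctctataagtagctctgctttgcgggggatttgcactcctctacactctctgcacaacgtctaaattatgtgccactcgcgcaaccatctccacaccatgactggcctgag

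Klf2 and Klf6 differed little between the groups. Klf2, on chromosome 8, best known from endothelial cells and resting T cells, had 59.3, 62.5 and 61.4 CPM in the libraries labelled EphA4 knockout, against 71.3, 71.3 and 73.8 CPM in control. The groups did not overlap, and the log2 fold change was -0.24 (SE 0.04, edgeR adjusted p 0.00095), a fall of 1.18-fold. Klf6, on chromosome 13, a widely expressed factor studied as a tumour suppressor, had 303, 313 and 289 CPM in the knockout-labelled libraries, against 325, 333 and 328 CPM in control. Its log2 fold change was -0.12 (SE 0.04, edgeR adjusted p 0.015). That call was lost when any 1 of the 6 libraries was left out, with edgeR adjusted p from 0.084 to 0.47, the weakest without EphA4 knockout replicate 3, where the log2 fold change was -0.04. It was also lost with relative log expression factors. In TPM the groups overlapped for Klf6, at 216 to 250 in the knockout-labelled and 234 to 246 in the control libraries.

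The Klf2 window at chr8:72318812-72319111 (plus strand) is shown because, with Nr4a1, it is 1 of the 2 genes with an EGR site match, a motif found in 2.91% of all RefSeq windows. The match stands at position -199 and a 5-letter CREB match at position -241, both in capitals. No window of the 7 genes held an NR4A monomer site, an AP-1 site or the ETS letters, against 1.51%, 5.2% and 8.86% of all windows.
Klf2: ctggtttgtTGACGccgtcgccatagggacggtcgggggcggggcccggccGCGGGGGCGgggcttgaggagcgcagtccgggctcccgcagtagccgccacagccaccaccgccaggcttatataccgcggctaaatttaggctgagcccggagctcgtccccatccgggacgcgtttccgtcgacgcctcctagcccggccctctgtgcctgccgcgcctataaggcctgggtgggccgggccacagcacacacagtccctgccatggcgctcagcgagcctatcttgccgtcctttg

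Compared per length, the order of the 10 genes was nearly the same in both groups. In TPM the knockout-labelled libraries had Ier3 at 434 ± 28.1, Klf6 at 235 ± 17.8, Ier2 at 134 ± 6.13 and Klf2 at 113 ± 5.07 (SD, n = 3 each). Control libraries had Ier3 at 1772 ± 94.7, Klf6 at 239 ± 6.13, Ier2 at 183 ± 10.9 and Klf2 at 124 ± 1.99 TPM (SD, n = 3 each). These 4 were well separated from each other in both groups. Nr4a1 followed with 20.0 ± 1.63 TPM in the knockout-labelled libraries and 35.6 ± 2.58 TPM in control, then Egr1 with 5.71 ± 1.24 and 35.1 ± 3.10 TPM and Nr4a2 with 4.19 ± 0.45 and 6.35 ± 0.77 TPM in the same order (SD, n = 3 each). Neighbours changed with the group: Egr1 overlapped Nr4a1 in control, but lay far below it and overlapped Nr4a2 in the knockout-labelled libraries. Egr2, Egr3 and Nr4a3 were last, at 0.092 TPM or less on average in the knockout-labelled libraries and 0.99 TPM or less in control, and the first 2 overlapped in control.

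The summed TPM of the 10 genes was 889 to 983 in the libraries labelled EphA4 knockout and 2295 to 2484 in control. Ier3 gave 44.5% to 47.1% of that sum in the knockout-labelled and 72.6% to 74.7% in the control libraries. Klf6 gave 24.2% to 25.8% and 9.43% to 10.7% in the same order. Of the 9 tested, 5, 6 and 4 were above their group mean in knockout-labelled replicates 1, 2 and 3, and 5, 5 and 2 in the control replicates. Egr1, Nr4a1, Nr4a2 and Ier2 were all above it in control replicate 1 and all below it in control replicate 3. Of the other tested genes, Ier3 was above it in both, Klf2 went the opposite way, and Egr2, Egr3 and Klf6 were below it in both. In knockout-labelled replicate 3 Egr1 and Nr4a2 were above their group mean, but Nr4a1 and Ier2 were below it.

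AP-1 genes, the immediate early genes of the FOS and JUN type, were mostly lower. Of 8 tested, 7 were lower and 1 higher, where 38.8% of all tested genes were lower and 32.7% higher. The median log2 fold change was -1.14, beside -0.70 over the 7 genes described here that passed the filter in both groups and -0.04 over all genes. With Egr2 and Egr3, whose direction the filter fixed, the median over the 9 is -0.94. Fos had 1.16 ± 0.21 CPM in the knockout-labelled libraries and 94.4 ± 8.49 CPM in control, and Fosb had 5.85 ± 0.61 and 51.9 ± 8.24 CPM (SD, n = 3 each). Fosl1, a later-acting FOS relative, rose to 198 ± 9.53 CPM in the knockout-labelled libraries, against 117 ± 3.13 CPM in control (SD, n = 3 each), although 57.2% of its exon length is shared with the gene model of Ccdc85b.

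Other immediate early genes went both ways. Of 36 listed, 35 were tested, 20 were lower, 9 were higher and 6 did not pass, with a median log2 fold change of -0.34, where 38.8% of all tested genes were lower and 32.7% higher. Gem, 1 of the 20, passed the filter through control alone, and without it 19 of 34 were lower, with a median of -0.31. Socs3, a feedback inhibitor of cytokine signalling, and Nfkbia, which encodes the NF-kB inhibitor IkBa, fell by 3.06 and 2.04 on the log2 scale. Plk2, a kinase gene, and Mcl1, an anti-apoptotic gene, rose, with log2 fold changes of 1.21 and 0.81. Plk2 reached 385 ± 4.13 CPM in the knockout-labelled libraries, against 167 ± 4.92 CPM in control (SD, n = 3 each). The growth factor response gene Myc, with 295 CPM in the knockout-labelled and 286 CPM in the control libraries on average, did not pass (log2 fold change 0.04, adjusted p = 0.34 in edgeR). Myc falls outside the rule for naming genes and was chosen after its values were seen.

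**Figure D3:**
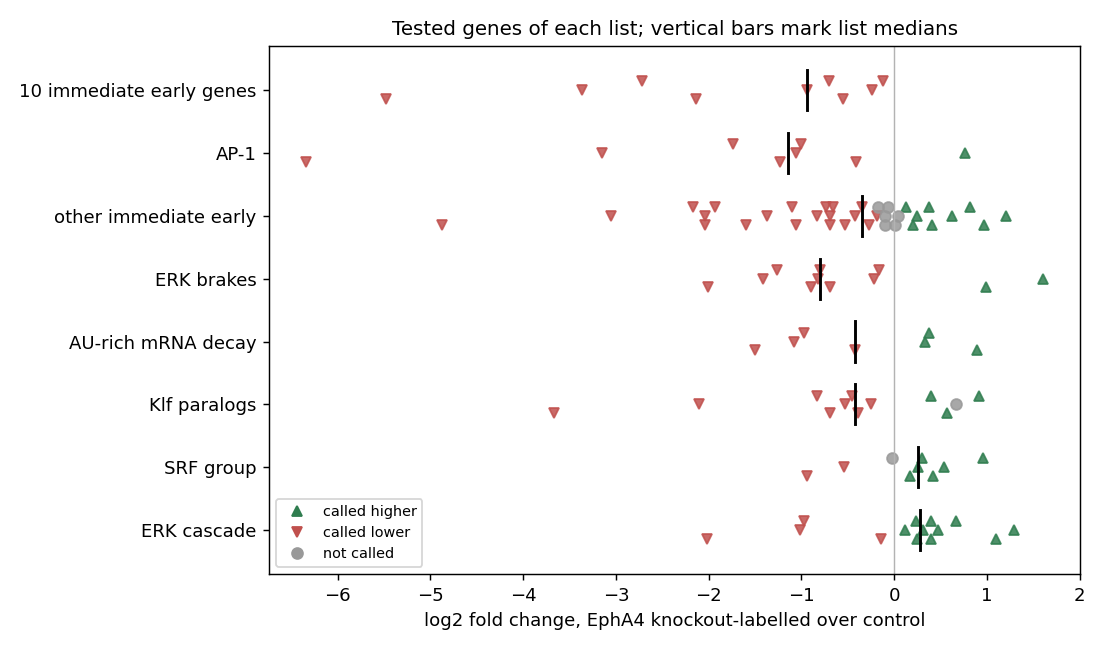
Log2 fold changes, EphA4 knockout-labelled over control, of the tested genes in each list, with triangles for calls at an adjusted p under 0.05 and black bars for list medians. The first 3 rows are immediate early lists with plotted medians of -0.94, -1.14 and -0.34, which without genes that passed the filter in 1 group alone are -0.70, -1.14 and -0.31, while the SRF group and the ERK cascade have medians of 0.25 and 0.27.

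The Krüppel-like paralogs of Klf2 and Klf6 had 8 lower and 3 higher of 12 tested, with a median of -0.42, where 38.8% of all tested genes were lower and 32.7% higher. Klf1 and Klf12 each passed the filter through 1 group alone, and without them 7 of 10 were lower and 3 higher. Of the paralogs, Klf4 and Klf10 are also among the other immediate early genes. Klf11 and Klf9 fell by 2.11 and 0.84 on the log2 scale, and Klf8 and Klf16 rose, with log2 fold changes of 0.91 and 0.56.

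Among genes that act upstream, more transcripts were higher than lower, where 32.7% of all tested genes were higher and 38.8% lower. Of the 9 genes in the SRF and CREB group, 6 were higher, 2 lower and 1 did not pass, with a median log2 fold change of 0.25. Srf itself and Mrtfb, an actin-regulated SRF coactivator, rose, with log2 fold changes of 0.54 and 0.96. Elk3, an ETS partner of SRF, fell by 0.55 on the log2 scale. Of 14 genes of the ERK cascade, 10 were higher and 4 lower, with a median of 0.27. Mapk3, which encodes ERK1, fell to 32.9 ± 1.98 CPM in the knockout-labelled libraries, against 134 ± 4.25 CPM in control (SD, n = 3 each), and Map2k1, its upstream kinase MEK1, fell by 1.02 on the log2 scale. Hras and the stress kinase gene Rps6ka5 rose, with log2 fold changes of 1.09 and 1.29. These are transcript levels, and ERK activity was not analysed here.

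Genes that limit the response were mostly lower. Of 11 MAP kinase phosphatase and Sprouty or Spred genes, 9 were lower and 2 higher, with a median log2 fold change of -0.80. Over all tested genes, 38.8% were lower and 32.7% higher. Dusp6 and Dusp4, phosphatases of ERK, fell by 2.01 and 1.42 on the log2 scale, and Dusp5 and Spry1 rose, with log2 fold changes of 1.61 and 0.99. Without a stated strand setting the last 2 are less certain, since 22.1% and 24.4% of their exon lengths overlap other gene models. Nab2, a corepressor that EGR proteins induce and that binds them, fell to 1.74 ± 0.03 CPM in the knockout-labelled libraries, against 10.7 ± 1.38 CPM in control (SD, n = 3 each). The log2 fold change of Nab2 was -2.62 (SE 0.17, edgeR adjusted p 1.5e-06), near that of Egr1, though 42.2% of its exon length overlaps its neighbours. Its paralog Nab1, at 78.9 and 81.6 CPM in the same order, did not pass (log2 fold change -0.05, adjusted p = 0.47 in edgeR).

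The nuclear receptor genes Rxra and Rxrb, partners of Nr4a1 and Nr4a2 on DNA, fell by 0.43 and 0.57 on the log2 scale, and Rxrg had 0 counts in every library. Among 7 genes of AU-rich mRNA decay, 4 were lower and 3 higher, where 38.8% of all tested genes were lower and 32.7% higher. The median log2 fold change of the 7 was -0.43. Zfp36, itself an immediate early gene whose product shortens the life of such transcripts, fell to 29.0 ± 1.58 CPM in the knockout-labelled libraries, against 61.5 ± 1.98 CPM in control (SD, n = 3 each). Zfp36l1 fell by 1.51 on the log2 scale, with 55.9% of its exon length in another gene model. Tnrc6a and Khsrp rose, with log2 fold changes of 0.90 and 0.38.

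The genes whose profile was most like the mean of the 9 tested genes, each as a z-score of log2 CPM over the 6 libraries, were Znrf1, Ddx58, Dusp4, Nfe2l1 and Zfp36l1, each with a Pearson's r that rounds to 1.00. Their log2 fold changes ran from -2.57 for Ddx58 to -0.83 for Nfe2l1. With 2 separate groups such a likeness mostly restates the difference between them, and 2762 of 9337 protein-coding genes compared had an r above 0.95.

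**Figure D4:**
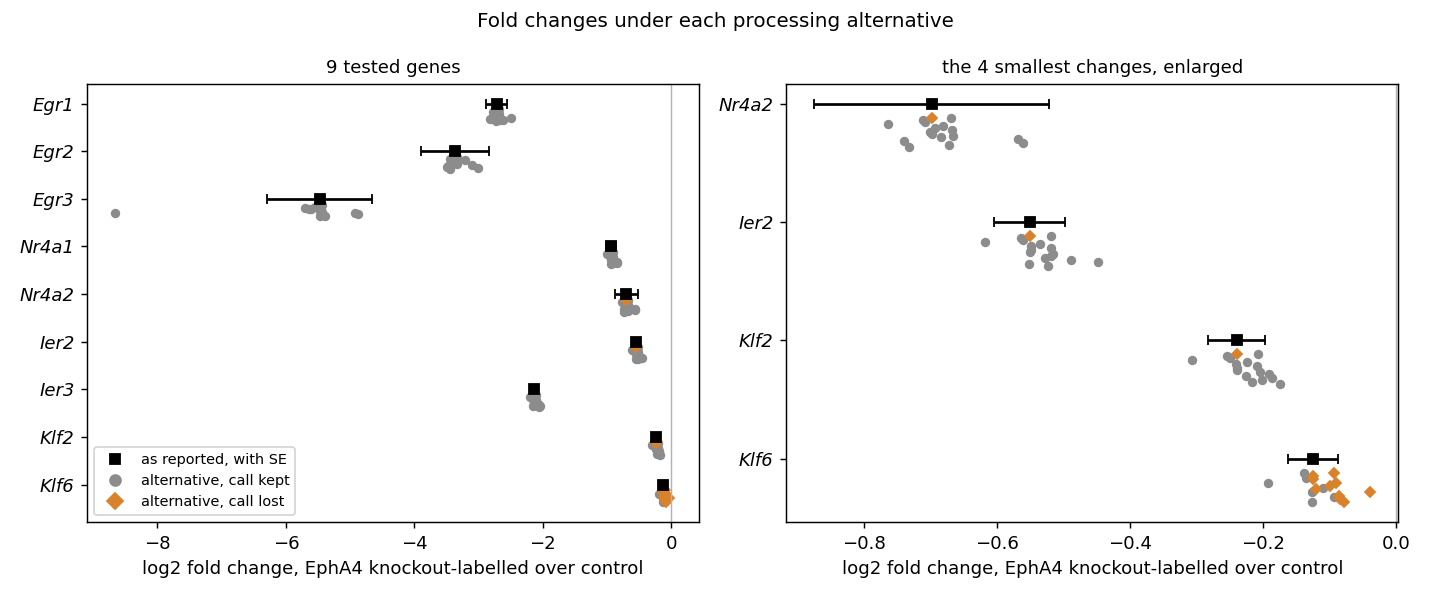
Log2 fold changes of the 9 tested genes (left) and of the 4 smallest ones on a wider scale (right), as reported with SE (black squares) and under each processing alternative (circles where the call was kept, diamonds where it was lost). Every value lies below 0, Egr3 reaches -8.66 without EphA4 knockout replicate 2, and Klf6, whose alternatives run from -0.19 to -0.04, has most of the lost calls.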

How the data were processed

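Raw counts by gene symbol, in 1 table deposited by the authors, covered the 6 libraries. The submitters' processing notes name STAR and the build GRCm39, without versions. For the counting tool, its strand setting and its annotation, nothing is stated in the sources used here. All 55418 symbols occur in GENCODE M21, built on GRCm38, which gave chromosomes and merged exon lengths. No exon of the 10 genes overlaps another gene model there. Promoter sequences are RefSeq's, on GRCm38.p6.

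filterByExpr kept 15199 of 28042 genes with any count. They were scaled by TMM and tested by two-sided quasi-likelihood tests of the group term in edgeR 4.0.16 under R 4.3.3. P-values were adjusted by Benjamini-Hochberg over all of them, with 0.05 as the threshold. SEs come from the log2 fold change and the root of its F statistic. CPM uses TMM-scaled totals of the tested genes, and 1 count is 0.0240 to 0.0283 CPM. The scripts were tested on simulated counts.

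The members and lists were chosen with earlier results of these data known. In each other list the most changed called genes of each direction were named where their log2 CPM averaged 3 or more, with all genes of lists of 3 or fewer and the 5 genes most like the members in profile. Myc alone was added afterwards. Replicates differed by more than sampling noise (a chi-square of 4.48 to 28.8 for each degree of freedom). The highest values, 27.6 and 28.8, were those of the pairs with EphA4 knockout replicate 3. The other pairs within a group had 4.48 to 9.53. Alternatives were other scaling factors and filters, limma-voom (limma 3.58.1), DESeq2 1.42.0, a replicate block, glmTreat against 1.5-fold, a threshold of 0.01, the 20 highest genes left out and each replicate left out. Figures used matplotlib 3.10.9.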

Additional observations from a re-analysis of the deposited data

How the results depend on the processing

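Over 17 alternatives Egr1, Nr4a1 and Ier3 kept their call, with log2 fold changes of -2.82 to -2.50, -1.01 to -0.84 and -2.20 to -2.05. Egr2 and Egr3 kept it in the 16 that tested them, but the main filter fixed their direction, so their kept calls are no support. They are part of the counts that follow wherever they were tested. Against a fold of 1.5 (glmTreat), 5 of the 10 genes were called lower, with Nr4a2, Ier2, Klf2 and Klf6 lost. Egr2 and Egr3 are 2 of these 5, and 3467 of all 15199 tested genes were called lower. In that setting 5473 genes in all were called (10867 without it), 14 other immediate early genes (29), 4 Klf paralogs (11) and 21 upstream and modulator genes (43). Klf6 lost its call in 10 alternatives. The count of the 10 genes called lower was 7 to 9 in the 16 other alternatives, and 0 were called higher in any. Of all tested genes, 4055 to 5309 were called higher in those 16. The 7 came from the filter of 5 CPM in 3 libraries, which left Egr2 and Egr3 untested. There 4383 of all 10519 tested genes were called lower. In the rest of the 16, 5187 to 6360 genes were called lower, of 15179 to 28042 tested. Leaving out 1 replicate gave 8 called lower each time. Then 5330 to 6029 of 15764 to 15941 tested genes were called lower, and 10045 to 11338 were called either way.

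With the replicate block, 9 of the 10 genes were again called lower. Of all 15199 tested genes 5715 were lower in that setting, and 10339 were called either way. Same-numbered samples deviated together only weakly, with correlations of 0.00055, 0.0833 and 0.0095 over 9611 genes, and samples 1 and 3 did not correlate best with their own number. Low counts limit what can be said of Egr2, Egr3 and Nr4a3.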
